A study of Mus musculus with 26 samples.

Results

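The genes described here encode the proteins of the cytosolic ribosome of the mouse, 1 gene for nearly every protein of the small (Rps) and large (Rpl, Rplp) subunit. They were taken by symbol (Rps or Rpl with a number and at most an a or x, Rplp0 to Rplp2, and Rpsa), which left out pseudogenes and the Rps6k kinases, and kept only genes whose mean over a table's libraries was 5 or more. The values are TMM-scaled CPM, that is read counts scaled to library sizes corrected by the trimmed mean of M values. The rule gave 74 member genes (29 of the small and 45 of the large subunit) among 53978 genes of the dTAG13 table, 71 (29 and 42) among 50969 genes of the overexpression table, and 43 (14 and 29) among 21275 genes of the testis table. The symbol pattern alone matched 76, 76 and 69 genes. Rps29 at 4.55 fell just outside the minimum in the dTAG13 table and Rpl29 at 6.08 just inside. In the overexpression table Rpl17 at 4.999 fell just outside and Rps27 at 5.42 inside, and in testis Rpl26 at 4.79 outside and Rpl13a at 5.15 inside.

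Ribosomal protein genes are transcribed in near-equal proportion to one another, and their mRNAs begin with a run of pyrimidines, the terminal oligopyrimidine (TOP) motif, through which mTOR signalling sets their translation. Each mRNA has given rise to many processed pseudogenes, intronless copies inserted elsewhere in the genome. Tex10 encodes a nuclear protein that is found with Pelp1, Wdr18, Senp3, Las1l, Nol9 and Mdn1 in a complex required for maturation of the large subunit. When assembly of ribosomes is disturbed, free Rpl5 and Rpl11 can bind Mdm2 and stabilise p53.

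The study measured mRNA in 26 libraries of 3 experiments. In the first, cells of strain 129Sv/J were sampled as untreated epiblast-like cells (EpiLCs) and as primordial germ cell-like cells (PGCLCs) at day 2 and day 4 of induction, treated with the solvent DMSO or with dTAG13 (500 nM), a small molecule that leads proteins carrying a degron tag to degradation, with 2 libraries in each of 5 groups. The second experiment followed untreated cells of the same strain through 4 stages (EpiLC, then day 2, day 4 and day 6) in 1 empty-vector line and in Tex10 overexpression clones 1 and 2, with 1 library of each line at each stage. In the third, testis cells of C57BL/6N mice came from 2 wildtype and 2 Tex10 conditional knockout (cKO) samples. The alleles of the dTAG13 line, the promoter of the overexpression vector, the Cre driver of the knockout, the age of the mice and whether replicate cultures were grown separately are not given in the sources used here, so p-values measure only the spread between these samples, which may be technical.

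Read totals of the libraries ranged from 5055362 to 8564563. Tex10 mRNA served as a check of the labels where it could. It was higher in both clones than in the empty-vector line at every stage (385 and 394 against 213 in EpiLCs, 651 and 654 against 145 at day 6). In testis it was at 29.8 and 27.3 in cKO and at 79.1 and 44.1 in wildtype. Degradation acts on the protein, so Tex10 mRNA under dTAG13 (76.8 and 72.8 at day 4 against 110 and 105 with DMSO) does not check it. Epiblast markers summed to 1260 to 1490 in EpiLCs and to 144 to 177 in day 2 DMSO cells, and germ cell specification markers to 551 to 561 and 1120 to 1200. The day 4 DMSO libraries stood apart from each other: the member genes summed to 6153 in replicate 1 and 4981 in replicate 2, while each other pair of libraries in the dTAG13 table differed by less.

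The member genes share coding sequence with processed copies, so a read from shared sequence could have been counted for either, and the closest copies are shown first. Rps6, a target of kinases downstream of mTOR, lies at chr4:86854660-86857412 (minus strand), and its copy Rps6-ps4 at chr2:75191073-75191822 (minus strand). The pair was identical over all 747 coding bases, and the first 90 of them are printed in lower case with no capitals because no base differs.
Rps6: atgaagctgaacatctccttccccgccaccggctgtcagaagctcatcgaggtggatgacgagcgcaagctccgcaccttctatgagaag
Rps6-ps4: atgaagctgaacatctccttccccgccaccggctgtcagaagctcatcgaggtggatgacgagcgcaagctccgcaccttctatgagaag

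Rpl14 at chr9:120571444-120574654 (plus strand) and its copy Rpl14-ps1 at chr7:45324965-45325617 (plus strand) were 98.9% identical, with 4 mismatches and 3 gap bases. Rpl4 at chr9:64173375-64178666 (plus strand) and its copy Gm5835 at chr1:143093347-143094616 (minus strand) were 96.9% identical over 1257 aligned bases, with 34 mismatches. Both proteins belong to the large subunit, and both genes were called in the testis. The stretches below hold 90 coding bases, from coding base 334 to 423 in Rpl14 and from 509 to 598 in Rpl4, with the bases that differ in capitals.
Rpl14: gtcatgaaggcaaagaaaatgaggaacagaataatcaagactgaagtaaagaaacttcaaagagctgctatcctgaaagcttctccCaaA
Rpl14-ps1: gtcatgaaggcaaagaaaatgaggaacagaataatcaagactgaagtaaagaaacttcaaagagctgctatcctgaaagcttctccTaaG
Rpl4: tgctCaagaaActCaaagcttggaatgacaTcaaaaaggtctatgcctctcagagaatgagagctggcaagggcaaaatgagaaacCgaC
Rpl4 copy Gm5835: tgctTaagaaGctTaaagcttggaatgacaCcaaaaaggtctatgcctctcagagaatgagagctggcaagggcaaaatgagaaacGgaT

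Coordinates and sequences are those of GENCODE M21 on GRCm38, whose mm10 build the submitters name. A copy was counted where at least 90% of the bases matched over at least 70 bases and 50% of the coding sequence. Such copies were listed beside 72 of 74 members in the dTAG13 table (951 copies), 69 of 71 in the overexpression table (836) and 39 of 43 in testis (80). Rpl8 was among the exceptions in all tables, and no copy of it was found.

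Together the members made up 0.532% to 0.710% of the summed values of a library in the dTAG13 table, 0.370% to 0.519% in the overexpression table and 0.0653% to 0.0974% in testis. Their copies summed to more than the members in every library, by a factor of 2.55 to 3.19 in the dTAG13 table, 7.45 to 10.2 in the overexpression table and 5.26 to 6.115 in testis. Of 74 members in the dTAG13 experiment, 51 were at a lower mean than their copies together. The mean of Rps6 there was 21.7 and that of Rps6-ps4 387. Rpl4 had a mean of 553 beside 2130 for Gm5835, and Rpl14 403 beside 506 for Rpl14-ps1. The level of a member gene is therefore that of the reads assigned to it and not of all its mRNA, and each comparison is given a second time with the values of the copies added to the member, an alternative chosen after seeing the data. How reads that match a member and a copy were assigned is not given in the sources used here, and its part in each result was not tested.

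**Figure D1:**
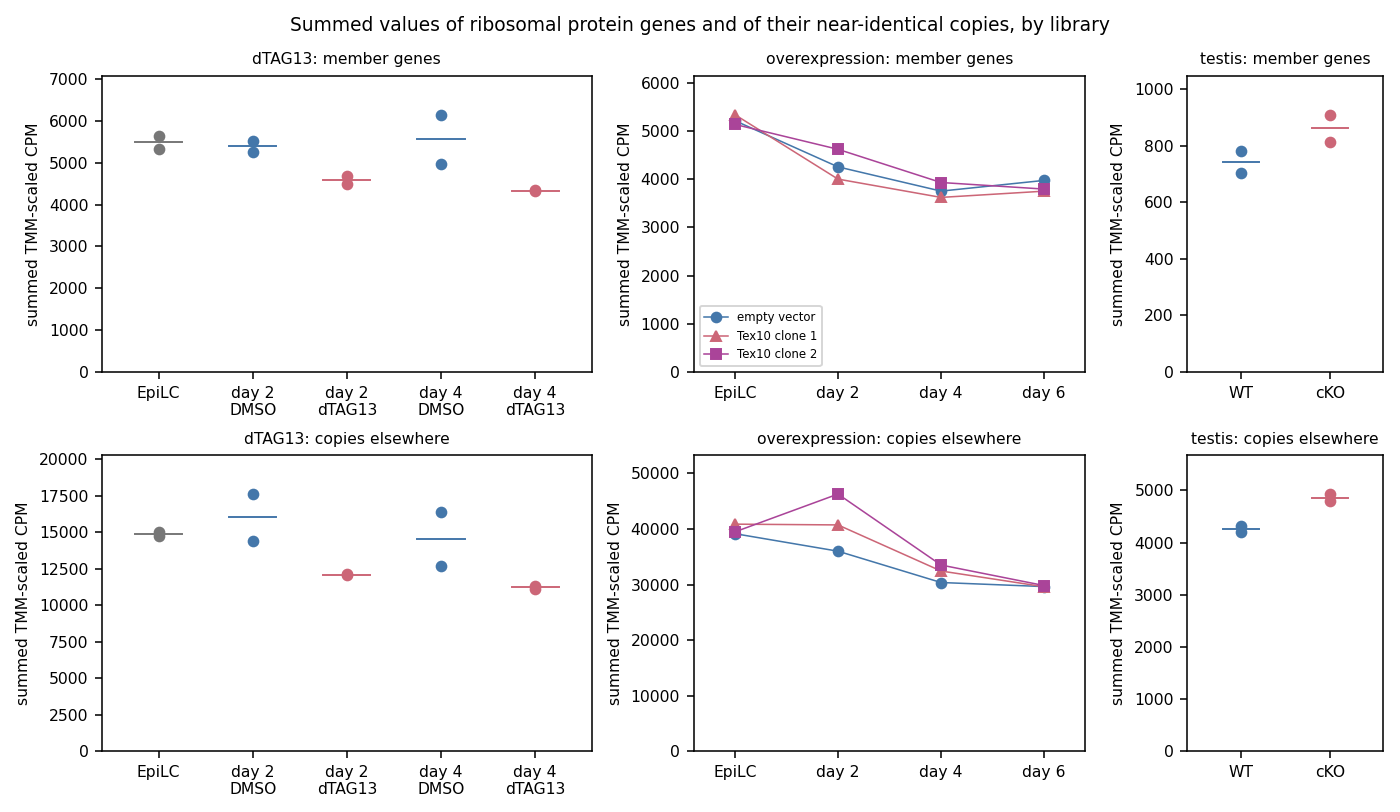
Summed TMM-scaled CPM of the member genes (top row) and of their near-identical copies (bottom row) in each library; bars in the dTAG13 and testis panels are group means of 2 libraries and lines in the overexpression panels join the stages of a line. Both dTAG13 groups lie below their DMSO groups in both rows, and in the overexpression table the copies reach 46282 in clone 2 at day 2 while its members fall from 5140 to 4623.

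The first question was how the ribosomal protein genes responded when Tex10 protein was to be degraded during PGCLC induction. At day 2, 19 of 74 members were lower with dTAG13 than with DMSO and none was higher (limma on log2 of the value plus 1, Benjamini-Hochberg adjusted p under 0.05 over all 16605 genes tested, n = 2 libraries a group). This is 25.7% of the members, where 19.9% of all genes tested, and 24.8% of those whose mean was 5 or more, were called lower, so that at day 2 the share was near the background of genes at like levels. At day 4, 48 members were lower and none higher, which is 64.9% against 26.0% of all genes and 31.8% of those whose mean was 5 or more. Of the 7 members with at most 1 copy elsewhere, 2 were called lower at day 2 and 3 at day 4, with medians of -0.29 and -0.03 and 3 of the 7 were above 0 at day 4. Of the 67 with 2 or more copies 17 and 45 were called, with medians of -0.27 and -0.54, and this split was not tested. The median log2 fold change of the members was -0.27 at day 2 and -0.53 at day 4, beside -0.09 and -0.13 over all genes tested. In bulk RNA, fewer cells of a type and less RNA per cell cannot be told apart.

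Members of both subunits were among them. Of the 29 small subunit genes, 8 were called lower at day 2 and 19 at day 4, with medians of -0.34 and -0.55. Of the 45 large subunit genes, 11 and 29 were called lower, with medians of -0.24 and -0.53. Both dTAG13 libraries were below both DMSO libraries for 52 members at day 2 (40.3% of all genes were) and for 62 at day 4 (41.7% of all genes), and for 47 of 74 members at both days, where 30.1% of all genes were. The members called at both days numbered 16 of 74, where 15.5% of all genes and 2421 of the 12120 whose mean was 5 or more were, so this count too was near the background. They were 84.2% of the calls of day 2 and 33.3% of those of day 4. Median-ratio scaling moved the median of all genes at day 4 from -0.13 to -0.03, and the members lay 0.40 below the median of all genes on the deposited scale and 0.39 below it after that scaling. It left 12 members called at day 2 and 37 at day 4, and the share of all genes called after that scaling was not counted.

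**Figure D2:**
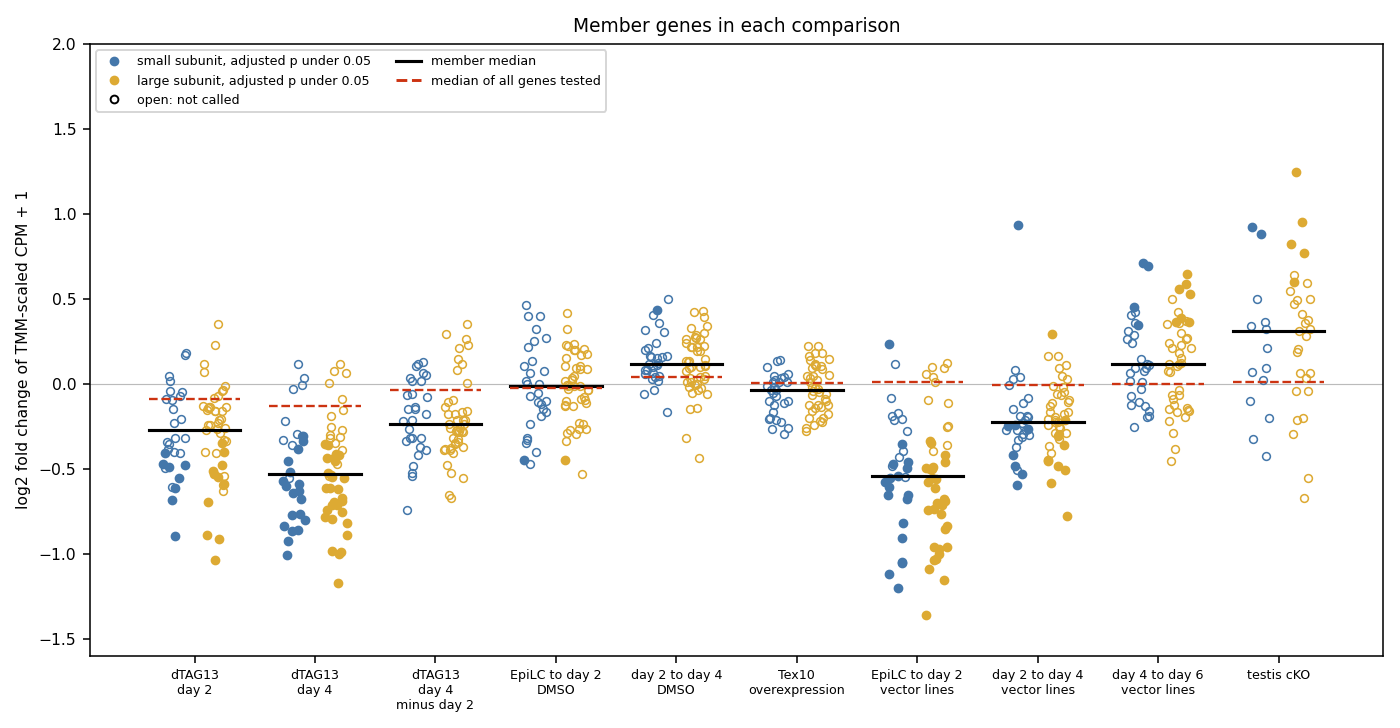
Log2 fold change of every member gene in the 10 comparisons, with the small subunit left and the large subunit right in each column; filled points passed an adjusted p of 0.05, the black line is the member median and the dashed line the median of all genes tested. The member median lies furthest below that of all genes from EpiLC to day 2 in the vector lines (-0.54 against 0.01) and at dTAG13 day 4 (-0.53 against -0.13), with some members above 0 in both.

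Rpl27, a protein of the large subunit close to the exit tunnel, had the lowest log2 fold change of all members at both days. It was at 58.2 and 40.0 in the day 2 DMSO libraries and at 18.8 and 28.2 with dTAG13, and at 51.8 and 36.6 against 20.2 and 17.5 at day 4. The groups did not overlap at either day. The log2 fold change of Rpl27 was -1.03 (SE 0.197, limma adjusted p 0.000331) at day 2 and -1.17 (SE 0.197, limma adjusted p 5.66e-05) at day 4. With its copies added, which sum to a mean of only 6.48 beside 41.2 for Rpl27 itself, it was -0.86 and -1.03 and called at both days.

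Rps2 sits at the entry channel of the mRNA on the small subunit. Its values were 80.9 and 46.8 with DMSO and 32.8 and 32.4 with dTAG13 at day 2, and 69.8 and 57.6 against 32.1 and 38.3 at day 4. The groups were apart at both days although the day 2 DMSO libraries of Rps2 differed widely. The log2 fold changes of Rps2 were -0.90 and -0.84, and -0.69 and -0.64 with copies, and all were called.

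Rpl39, the small protein that lines the exit tunnel, was at 15.5 and 15.9 with DMSO and at 7.46 and 8.29 with dTAG13 at day 2, and at 23.7 and 14.2 against 10.7 and 12.7 at day 4. It was called lower at both days, at log2 fold changes of -0.91 and -0.62. Its copies, chiefly Rpl39-ps, carried most of the reads (a mean of 92.0 beside 13.8 for Rpl39), and with them added the fold changes were larger, -1.57 (limma adjusted p 5.48e-06) and -1.66 (limma adjusted p 1.36e-06). Rpl38, whose loss in mice alters translation of Hox mRNAs, showed this more sharply. By itself Rpl38 was at 10.1 and 7.60 against 7.77 and 8.03 at day 2 and at 11.4 and 10.1 against 9.39 and 6.67 at day 4, and it was called at neither day. With copies it was at 184 and 75.9 against 29.8 and 46.2, and at 167 and 107 against 37.7 and 57.8, with called log2 fold changes of -1.64 and -1.50.

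Rpl11 and Rpl5, which can bind Mdm2, and Rpl10, which joins the large subunit late in its maturation, were called at day 4 alone. Rpl11 was at 25.9 and 25.4 with DMSO and 21.3 and 20.9 with dTAG13 at day 2, and at 28.6 and 33.6 against 14.96 and 20.3 at day 4. Its log2 fold change was -0.27 (SE 0.169, limma adjusted p 0.230) at day 2 and -0.79 (SE 0.169, limma adjusted p 0.000665) at day 4. Rpl5 was at 56.7 and 62.2 against 52.1 and 48.0 at day 2 and at 72.2 and 54.4 against 45.3 and 45.5 at day 4, log2 fold changes of -0.24 and -0.46. For both genes the dTAG13 libraries were below the DMSO libraries at each day, and with copies both were called at both days. Rpl10 was at 32.8 and 34.0 against 24.5 and 24.9 at day 4, a called log2 fold change of -0.42 that was -0.27 and not called with copies.

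The stalk of the large subunit, which recruits the elongation factors, is built from Rplp0, Rplp1 and Rplp2. Rplp2 was at 26.4 and 26.7 against 21.4 and 15.7 at day 2 and at 25.02 and 29.97 against 19.5 and 14.5 at day 4, and it was called lower at both days (log2 fold changes of -0.51 and -0.67). The single copy of Rplp2 was close to 0, and adding it left both calls. Rplp0 and Rplp1 were called at neither day, at log2 fold changes of 0.23 and -0.01 at day 2 and of -0.09 and -0.19 at day 4.

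Among the proteins of the small subunit, Rps6 was called lower at day 2 only (21.8 and 21.2 against 16.2 and 14.2, log2 fold change -0.48, limma adjusted p 0.0427). With its copies Rps6 was at 397 and 432 against 418 and 411, groups that interleave, and the log2 fold change was 0.0031. The identical coding sequences printed above are those of this pair. Rps19, the gene most often mutated in Diamond-Blackfan anaemia, and Rpsa, which also serves as a laminin receptor, were called at day 4 at -0.33 and -0.31. Rpsa was at 63.7 and 68.2 against 52.2 and 54.0, and with copies its log2 fold change was -0.02 and not called. Rps3 at the mRNA entry channel and Rps14 lay near 0 at both days (0.05 and -0.03, -0.04 and -0.01).

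Other members at the low end of day 4 were Rps26 (23.3 and 18.6 against 7.63 and 12.7, log2 fold change -1.01) and Rpl23a (11.8 and 8.96 against 5.43 and 3.97, log2 fold change -0.999). With copies Rps26 remained called at -0.36 and Rpl23a was not called at -0.36. GENCODE places 62.3% of the exon bases of Rpl23a under Tlcd1 on the opposite strand or Snord42b on the same strand. The strand setting of the counting is not given in the sources used here. At the other end were Rpl19 (log2 fold changes of 0.35 and 0.12) and Rpl23 (0.08 at day 4), neither of them called.

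**Figure D3:**
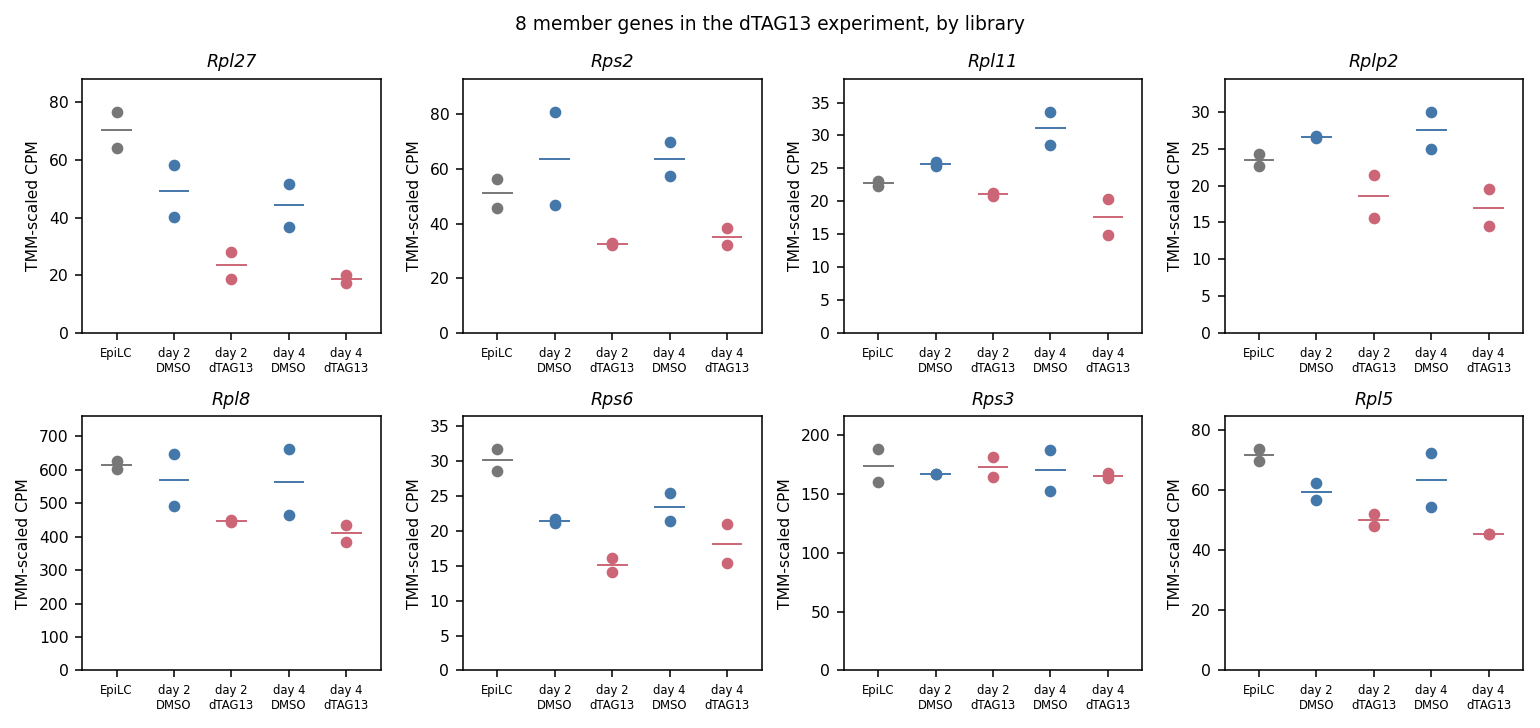
TMM-scaled CPM of 8 member genes in each library of the dTAG13 experiment; points are libraries and bars the means of 2. Rpl27, Rps2 and Rplp2 show dTAG13 libraries below DMSO libraries at both days, Rpl8, Rpl5, Rpl11 and Rps6 likewise, and Rps3 shows overlapping groups.

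A member with no copy shows the comparison without that uncertainty. Rpl8, at the core of the large subunit, was at 648 and 492 with DMSO and 450 and 445 with dTAG13 at day 2, and at 661 and 466 against 385 and 436 at day 4. The groups did not overlap, with log2 fold changes of -0.33 (SE 0.139, limma adjusted p 0.0682) and -0.44 (SE 0.139, limma adjusted p 0.0145).

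With copies added to every member, 36 of 74 members (48.6%) were called lower at day 2 and 46 (62.2%) at day 4, where 20.1% and 26.1% of all genes so counted were. The medians were -0.33 and -0.43. The genes were partly others: 16 members were called in both ways of counting at day 2 and 33 at day 4. Rps13 was at -0.80 alone and 0.17 with copies at day 4, and Rpl28 at -0.99 alone and -0.10 with copies. The difference between the days itself, day 4 minus day 2, was called for 0 of 74 members by limma, where 1.25% of all genes were called. At an unadjusted p under 0.05 in limma there were 9 members, and edgeR and DESeq2 called 0. The share of all genes at that unadjusted threshold was not counted. Its median was -0.24 and -0.10 with copies. Leaving out day 4 DMSO replicate 1 gave 2 called members, both higher, and a median of -0.14, and leaving out replicate 2 gave 2, both lower, and a median of -0.33.

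At day 2, 9 members were called without DMSO replicate 1 and 11 without dTAG13 replicate 2, and at day 4 leaving out 1 library gave 36 to 47. DESeq2 on the reads recovered from the values called 7 members at day 2 and 28 at day 4. The share of all genes called was not counted for DESeq2 or with 1 library left out, so these counts have no background. The authors' deposited table listed 4 members lower at day 2 and 25 at day 4 at an FDR under 0.05, where it listed 2.53% and 4.39% of all genes as lower, and 9.63% and 16.5% of those whose mean was 5 or more. The 4 of 74 at day 2 lie below the share of genes at like levels. The members' medians there were -0.28 and -0.53.

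Other genes of ribosome production and translation were counted beside the members. Of 4 cytosolic ribosomal genes with other symbols, 2 were called lower at each day, with medians of -0.69 and -1.02. Among them Fau, a fusion of a ubiquitin-like and a small subunit protein, was called lower at day 2 (-1.12), Rps3a1 at day 4 (-1.11) and Rack1 at neither. Translation factors of the TOP class were lower for 8 of 16 at day 2 and 11 at day 4, ribosome biogenesis factors for 14 and 19 of 29 with 1 higher at day 4, and Tex10 and its complex partners for 3 and 5 of 7. Mitochondrial ribosomal proteins were lower for 25 and 27 of 77, which is 32.5% and 35.1% where 24.8% and 31.8% of all genes whose mean was 5 or more were, so the share at day 4 was near that background. The medians of these 4 lists, from the translation factors on, lay between -0.26 and -0.45.

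Of 8 paralogs of the members tested, 4 were called lower at day 2 and 5 at day 4, when 1 was higher, where 19.9% and 26.0% of all genes were lower and 15.8% higher at day 4. Rpl10l, the intronless relative of Rpl10 used in the testis, was at 94.2 and 78.3 against 47.4 and 53.4 at day 2 and at 102 and 82.6 against 52.5 and 51.3 at day 4. Its log2 fold changes were -0.76 and -0.81, both called. Rpl22l1, the relative of Rpl22, was called lower at day 4 (-1.18), as were Rps27rt (-1.22), Rpl39l (-0.81) and Rps4l (-0.58). Rps27rt, at a mean of 32.2 beside 11.8 for Rps27, is also the largest copy of Rps27. Its reads are therefore part of Rps27 in the counts with copies. Rps27l, a p53 target, was the exception in the list: it was at 78.0 and 33.1 with DMSO and 89.6 and 94.2 with dTAG13 at day 4, a log2 fold change of 0.84 (SE 0.239, limma adjusted p 0.00710). Of 10 p53 target genes, 9 were higher at day 2 and 10 at day 4, where 13.7% and 15.8% of all genes were, and the list summed to 1700 to 1740 with DMSO and 4620 to 4650 with dTAG13 at day 2, and to 1290 to 1410 and 5300 to 5510 at day 4.

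Some lists of cell identity markers moved as well. Of all genes, 19.9% and 26.0% were lower and 13.7% and 15.8% higher at day 2 and day 4. Of 5 epiblast markers tested, 1 was lower and 1 higher at day 2, and 1 was higher at day 4. Their sums were 144 to 177 with DMSO against 157 to 159 with dTAG13 at day 2. At day 4 they were 75 to 89.6 against 96.3 to 101. Germ cell specification markers were lower for 5 of 9 and higher for 1 at each day, summing to 1120 to 1200 against 682 to 738 at day 2 and to 1220 to 1550 against 811 to 894 at day 4, with none of the 9 at 0. Of 9 mesoderm and endoderm markers, 4 were tested and 2 were higher at each day, with sums of 13.6 to 16.7 against 35.6 to 45.8 and of 19.2 to 21.3 against 42.7 to 44.8. Of these markers 1 was at 0 in both DMSO groups and 1 in day 4 dTAG13 cells. Genes of the mitochondrial genome made up 4.57% and 3.42% of the summed values with DMSO and 3.03% and 3.04% with dTAG13 at day 2, groups that did not overlap, and 4.95% and 2.97% against 2.77% and 3.32% at day 4, groups that did. The part of the markers and of these shares in the change of the members was not tested.

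The next question was how the members changed along PGCLC induction without depletion. In the dTAG13 experiment 2 of 74 members were lower in day 2 DMSO cells than in untreated EpiLCs, where 14.7% of all genes were called lower, and none was higher. These were Rpl10 (37.8 and 46.0 in EpiLCs, 29.9 and 30.5 at day 2, log2 fold change -0.45, limma adjusted p 0.0250) and Rps15a of the small subunit (76.4 and 79.9, then 59.5 and 54.6, log2 fold change -0.45, limma adjusted p 0.0118). The call of Rps15a held with copies and that of Rpl10 did not. The member median was -0.01, against -0.03 over all genes. Treatment also differs between these groups, since the EpiLCs had no DMSO. Quantile normalization called 6 members, all higher, median-ratio scaling 2 lower and 1 higher, without EpiLC replicate 2 there was no call, and without day 2 DMSO replicate 2 there were 2 calls, both higher. edgeR and a fit of only the compared groups also called more members than the main fit, as given in the last section.

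From day 2 to day 4 with DMSO, 1 of 74 members was higher, where 2.44% of all genes were, and none was lower. Rps24, a protein of the small subunit, was at 144 and 154 at day 2 and at 201 and 202 at day 4, groups that did not overlap. Its log2 fold change was 0.44 (SE 0.0982, limma adjusted p 0.00855), and with copies -0.11. The members' median was 0.12, with 60 of 74 above 0, beside 0.04 over all genes. Adding the copies gave a median of 0.04, beside 0.04 over all genes so counted, with 32 of 74 members below 0, where 14 were alone. Leaving out 1 library at a time gave medians of 0.04 to 0.19 for the members alone. Without day 4 DMSO replicate 1 there were 3 calls, 2 of them lower, without replicate 2 there were 6, all higher, and without day 2 DMSO replicate 1 there were 0. With copies 4 members were lower (Rpl28, Rpl31, Rpl35 and Rps13) and 3 higher (Rps14, Rps20 and Rps28), all 7 named after their values were seen, where 3.14% of all genes were lower and 2.52% higher.

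In the overexpression experiment the stages were compared within lines. From EpiLC to day 2, 47 of 71 members were lower (66.2%, where 22.1% of all genes were) and 1, Rps2, was higher. The median was -0.54 against 0.01 over all genes. The share of the mitochondrial genome was 4.91% to 5.57% in EpiLCs and 6.40% to 8.46% at day 2, and its part in the step was not tested. Of the 7 members with at most 1 copy 2 were called, with a median of -0.08, and of the 64 others 45 were called lower, with a median of -0.55. Rpl27 again had the lowest log2 fold change: it was at 156 in the empty-vector line, 154 in clone 1 and 142 in clone 2 as EpiLCs, at 63.9, 54.7 and 55.9 at day 2, at 28.7, 39.8 and 49.8 at day 4 and at 38.5, 44.3 and 45.9 at day 6. Every line had its highest value of Rpl27 in EpiLCs, and the step to day 2 was -1.36 (SE 0.126, limma adjusted p 4.19e-10). With copies it was -1.25.

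Most of the other calls of that step changed when the copies were added. Only 16 members (22.5%, where 22.1% of all genes were) were then lower and 2, Rps2 and Rpl5, higher, and the member median was -0.05. Rps10 is an example: alone it went from 30.8, 37.6 and 31.6 in EpiLCs to 12.2, 12.9 and 16.95 at day 2 (log2 fold change -1.20), and with copies from 385, 396.5 and 379 to 365, 387 and 434 (0.03). Rps6 went from 29.9, 25.7 and 27.6 to 15.4, 14.0 and 13.6 alone (-0.90) and from 1331, 1275 and 1256 to 1112, 1376 and 1500 with copies (0.04). Rplp2, with a copy listed at 0 in these libraries, went from 37.1, 34.3 and 33.0 to 19.8, 16.0 and 13.9 (-1.04), and Rpl10 was at -0.85 alone and -0.75 with copies. Rps2 was at 103, 109 and 104 in EpiLCs and at 126, 113 and 135 at day 2, a log2 fold change of 0.24 alone and 0.27 with copies. Rpl8, with no copy, was at 894, 860 and 878 in EpiLCs and 938, 929 and 937 at day 2, and its 0.09 was not called.

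From day 2 to day 4 in these lines 16 of 71 members were lower (22.5%, where 11.9% of all genes were) and 2, Rpl15 and Rps20, higher, with a median of -0.23. With copies 50 were lower (70.4%, where 11.8% of all genes were) and Rpl15 higher, with a median of -0.31. Rpl39 had the lowest value, from 8.48, 7.86 and 7.72 to 4.90, 4.01 and 3.92, a log2 fold change of -0.78. Rps24 went from 140, 157 and 158 to 101, 95.3 and 103 (-0.60). Each line fell in both genes. Rpl8 went to 848, 790 and 782 (-0.21, limma adjusted p 0.0172), so this member with no copy was called lower. Rps20 rose alone from 26.6, 15.6 and 17.7 to 40.5, 34.4 and 39.4 (0.93) and was at -0.0067 with copies. Without clone 1 there were 8 calls and without clone 2 there were 7.

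From day 4 to day 6, 11 of 71 members were higher (15.5%, where 3.49% of all genes were) and none lower, with a median of 0.12. The highest were Rps13 (0.71), Rps10 (0.69) and Rpl18 (0.65). Rpl18 was at 17.8, 19.4 and 16.99 at day 4 and 29.97, 25.7 and 30.9 at day 6, and with copies at 218, 237 and 217 and then 217, 198 and 205, so the order of the stages changed. With copies 2 members were higher (Rpl13 and Rps18) and 2 lower (Rplp0 and Rps21), where 6.84% of all genes were called in either direction. The member median changed sign to -0.08 with copies, with 47 of 71 members below 0, where 24 were alone. Without the empty-vector line 17 members were called, 13 higher and 4 lower, and 2 were called, both higher, without clone 1 or without clone 2.

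**Figure D4:**
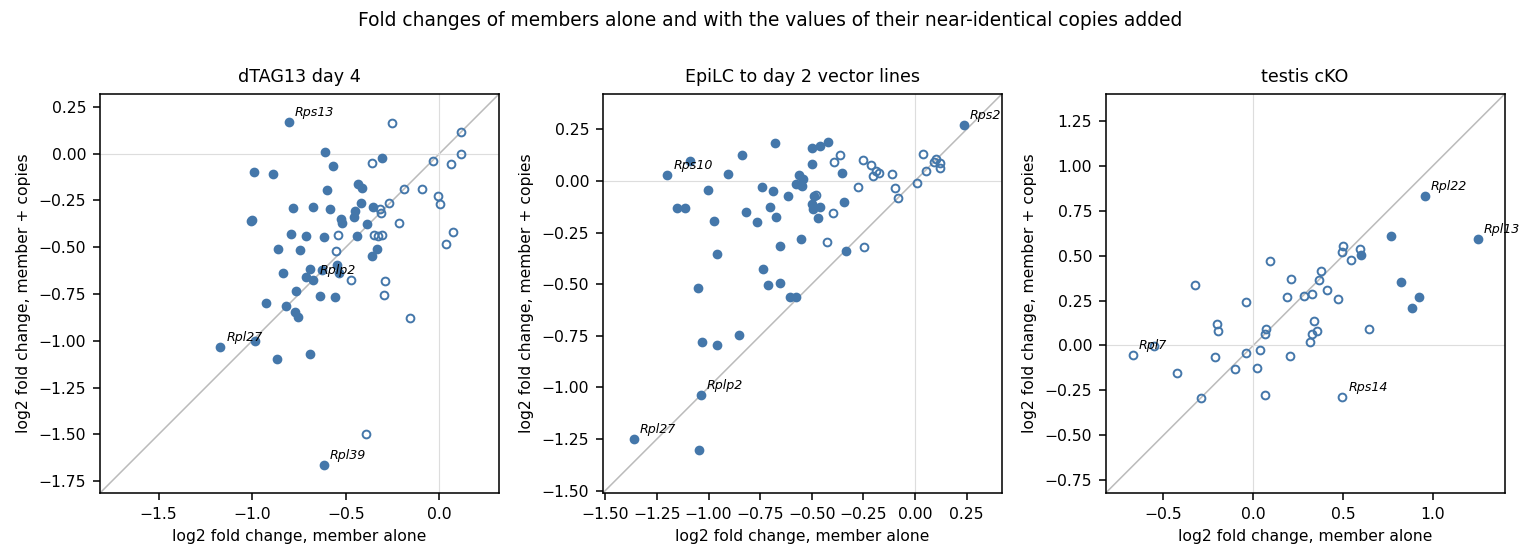
Log2 fold change of each member alone (horizontal axis) and with the values of its near-identical copies added (vertical axis) in 3 comparisons; filled points were called for the member alone and the line marks equal values. Rpl27 and Rplp2 lie near the line, and from EpiLC to day 2 many called members, such as Rps10 at -1.20 and 0.03, lie near 0 on the vertical axis.

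Overexpression of Tex10 was compared with the empty vector over all stages. None of 71 members was called by limma in either direction, where 8.76% of all genes were. An unadjusted limma p under 0.05 was found for 8 members, and the share of all genes at that threshold was not counted. The median was -0.04, against 0.01 over all genes. edgeR called 1 member and DESeq2 0. There was 1 control library at each stage, so the main comparison pooled the stages, with stage as a covariate, and the values within a stage are given below without a test. Stages of the same lines stood in for replicates, so the p-values of this comparison treat repeated samples of a line as independent. A difference between the lines themselves cannot be told apart from an effect of Tex10.

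The extremes were small. In the counts out of 8 below, both clones of a stage were set against the same empty-vector library. The share of all genes with such counts was not taken, so they have no background. Rpl36 was higher in 7 of 8 clone libraries, with the highest log2 fold change (0.22, limma adjusted p 0.324). Rps20 was lower in 8 of 8 clone libraries (41.6 in the empty-vector line against 33.7 and 30.6 in EpiLCs, and 26.6 against 15.6 and 17.7 at day 2), with a log2 fold change of -0.29 (SE 0.0969, limma adjusted p 0.0563). Rpl30 was also lower in 8 of 8 (-0.28, limma adjusted p 0.0900). Rplp0 was higher in 7 of 8 (0.22, limma adjusted p 0.172). Rpl22, which binds RNA outside the ribosome too, was higher in 6 of 8 (0.16, limma adjusted p 0.1). Rpl8, with no copy, was lower in 8 of 8 by a log2 fold change of only -0.06.

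Within stages the member medians of clone 1 and clone 2 were 0.02 and -0.02 in EpiLCs, -0.14 and 0.09 at day 2, -0.08 and 0.04 at day 4, and -0.06 and -0.09 at day 6. For the members alone, the medians of the clones had opposite signs in EpiLCs, at day 2 and at day 4. Counted with copies, clone 1 had medians of 0.06 (EpiLC), 0.07 (day 2), 0.06 (day 4) and -0.02 (day 6). Clone 2 then had 0.006, 0.31, 0.17 and 0.009 in the same order. In that count both clones were positive before day 6 and differed in sign only at day 6. Over all stages 5 members were higher with copies (Rpl13a, Rpl26, Rpl35, Rps16 and Rps25, at log2 fold changes of 0.18 to 0.26). This is 7.04% where 4.60% of all genes were, and the median was 0.09. The authors' deposited table listed 0 members in EpiLCs, 1 lower and 1 higher at day 2, 3 lower and 1 higher at day 4 and 0 at day 6, where it listed 0.677%, 1.47%, 1.65% and 0.606% of all genes in either direction, and 2.86%, 6.10%, 6.75% and 2.44% of those whose mean was 5 or more. At no stage was the members' share above that of genes at like levels.

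Of the paralogs, 3 of 8 were higher, where 4.54% of all genes were. Rpl10l was at 268 in the empty-vector line against 276 and 275 in EpiLCs, at 51.4 against 89.5 and 92.9 at day 2, at 80.9 against 161 and 159.6 at day 4, and at 155 against 190 and 195 at day 6. Both clones were above the empty-vector line at every stage, with a log2 fold change of 0.54 (SE 0.0877, limma adjusted p 0.000123). Rpl7l1 (0.28) and Rps4l (0.21) were also called. No translation factor of the TOP class and no p53 target gene was called, and 2 of 29 biogenesis factors were higher.

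In testis the values of the 43 members were compared between cKO and wildtype. There 7 members were higher in cKO and none lower, 16.3% of the members where 16.1% of all genes, and 19.5% of those whose mean was 5 or more, were called higher, so in this fit the share was near the background. Rpl13, Rpl13a, Rpl31 and Rps14 had a wildtype mean under 5 and passed the minimum for members through cKO, and Rpsa had a cKO mean under 5. The member median was 0.31 against 0.01 over all genes, and the members summed to 911 and 816 in cKO and to 783 and 705 in wildtype.

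The member called with the highest log2 fold change was Rpl13 (9.75 and 10.2 in cKO, 4.79 and 2.67 in wildtype), at 1.25 (SE 0.306, limma adjusted p 0.00799). Since Rpl13 became a member through its cKO values, its place follows in part from the rule. With copies Rpl13 was at 20.9 and 17.2 against 13.4 and 11.1, 0.59 and not called. Rpl22 was at 33.0 and 23.0 against 15.1 and 12.6, a log2 fold change of 0.95 alone and 0.83 with copies, called in both. Rpl14, whose copy is printed above, was at 65.8 and 54.3 against 36.1 and 33.3 (0.77), and with the copy at 260 and 249 against 174 and 159 (0.61). Rpl4 was at 73.1 and 51.6 against 49.65 and 32.6 (0.60), and with the copy at 516 and 538 against 380 and 364 (0.50). For Rpl22, Rpl14 and Rpl4 the groups did not overlap in either way of counting, and these were the 3 members called in both.

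The remaining called members were Rps9 (0.92), Rps24 (0.88) and Rpl9 (0.82), which with copies were at 0.27, 0.21 and 0.35 and not called. With copies 7 members were again higher, where 16.2% of all genes were: Rpl22, Rpl14, Rpl4, Rpl10a, Rpl27a, Rpl28 and Rps3, and the median was 0.21. At the low end Rpl7 (7.24 and 6.73 in cKO, 10.8 and 12.7 in wildtype, log2 fold change -0.67, limma adjusted p 0.0580) and Rps25 (-0.42) had groups apart but were not called, and Rplp0 was at 37.6 and 15.6 against 36.3 and 35.9. Rpl8, with no copy, was at 87.8 and 95.7 against 88.3 and 100.45 (-0.04). Of the 6 members with at most 1 copy elsewhere, 3 were called higher, with a median of 0.48 and 5 above 0. Among the 37 with 2 or more copies 4 were called higher, with a median of 0.28 and 27 above 0, and this split was not tested.

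**Figure D5:**
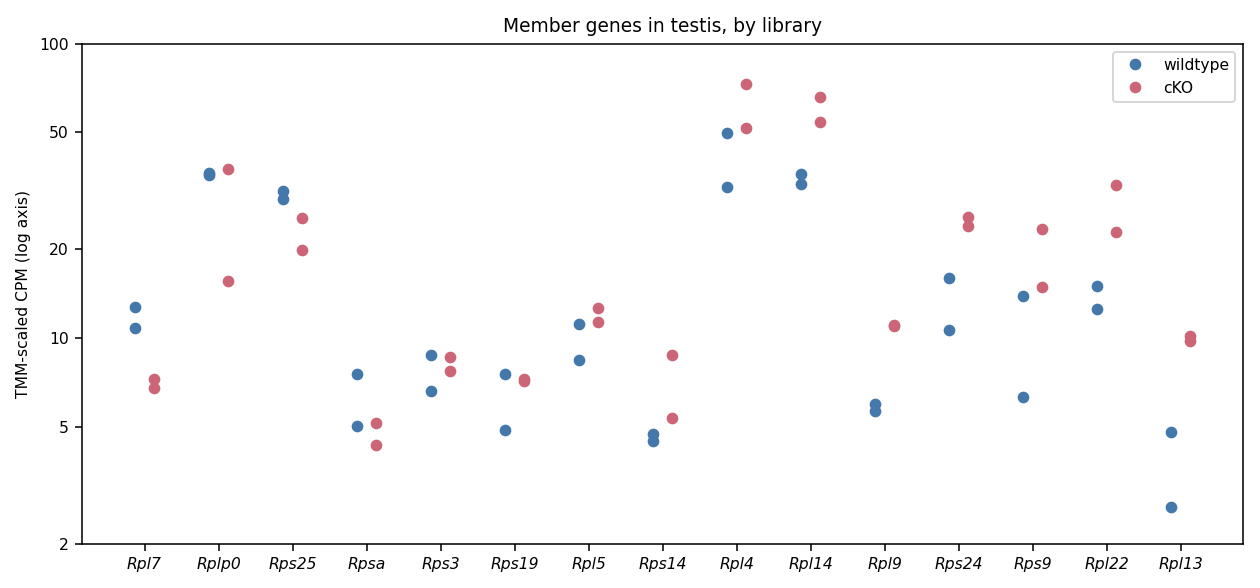
TMM-scaled CPM on a log axis of 15 member genes in each testis library, wildtype left and cKO right of each gene. The called members from Rpl4 to Rpl13 have both cKO libraries above both wildtype libraries, and Rpl7 and Rps25 have both below.

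Cell type markers differed between these testes. Spermatid markers were lower for 8 of 9, summing to 23700 to 26200 in wildtype and 16800 to 17300 in cKO, and Sertoli markers were higher for 7 of 7 (346 to 405, then 1060 to 1220) and Leydig markers for 6 of 6 (242 to 348, then 596 to 982). Spermatogonia markers were higher for 4 of 6, spermatocyte markers for 2 of 8 and macrophage markers for 3 of 5 tested. None of the listed markers in the table was at 0 in either group, and their part in the change of the members was not tested. Genes of the mitochondrial genome made up 2.60% and 2.32% of the summed values in cKO and 1.29% and 0.994% in wildtype, and the part of this in the members' values was not tested either. Leaving out cKO replicate 1 gave 4 called members, 1 of them lower, and a median of 0.17, and leaving out wildtype replicate 2 a median of 0.14. After median-ratio scaling 1 member was lower and 7 higher, and after quantile normalization 1 and 4. A fit with a replicate block called more members than the main fit, in both directions, as given in the last section. The authors' deposited table listed 1 of 43 members lower and 7 higher, where it listed 13.6% of all genes as lower and 17.1% as higher, and 18.5% and 20.2% of those whose mean was 5 or more.

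Genes of other steps of ribosome production were counted in testis as well. Translation factors of the TOP class were lower for 3 of 16 and higher for 0, biogenesis factors lower for 2 and higher for 8 of 29 (27.6%), and p53 target genes higher for 6 of 9, where 13.1% of all genes were lower and 16.1% higher. Mitochondrial ribosomal proteins were higher for 12 of 75, which is 16.0% and at that background. Of 9 paralogs, Rpl7l1 was higher (41.6 and 34.9 in cKO against 24.996 and 21.3 in wildtype, log2 fold change 0.70). Rpl10l was at 310 and 360 against 391 and 430, a log2 fold change of -0.29 that was not called (limma adjusted p 0.0841).

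The start sites of the members were searched for motifs known from this family. In RefSeq promoter windows (GRCm38.p6) there were 65 windows of 55 matched member genes among 32851 windows. Within 10 bases of the start and on the same strand, CTTTCC was in 12.3% of member windows and 0.837% of all, CTCTTT in 9.23% and 0.691%, and TTTCC, which CTTTCC contains, in 18.5% and 2.87%. On either strand of the whole window the ETS core CCGGAAG was in 36.9% and 8.86%, the YY1 core AAGATGGC in 10.8% and 2.75%, the SP1 core GGGCGG in 61.5% and 35.7%, and the TATA box TATAAA in 9.23% and 13.6%. A match is a run of letters and not a site shown to be used. The starts of 3 members named above are printed from 30 bases before to 20 after the start, with CTTTCC or CTCTTT in capitals: Rpl28 (chr7:4792935-4792984, plus strand), called at both days, Rps6 (chr4:86857348-86857397, minus strand), called at day 2 only, and Rpl27 (chr11:101442215-101442264, plus strand), the lowest at both days, in which neither is found.
Rpl28: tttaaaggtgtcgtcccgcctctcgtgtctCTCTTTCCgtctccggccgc
Rps6: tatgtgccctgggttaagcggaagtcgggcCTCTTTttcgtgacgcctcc
Rpl27: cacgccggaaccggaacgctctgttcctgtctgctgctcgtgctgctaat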

How the data were processed

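RNA-seq values of 26 libraries were used from 3 tables. Per the submitters' processing notes the tools were Bowtie2 2.3.4.3, SAMtools 1.9, HTSeq 0.11.2 and edgeR 3.26.8 with build mm10; their roles, the annotation and the counting settings are not given in the sources used here. Per the labels, a NuGEN Ovation kit was used for the dTAG13 and testis libraries and a Tecan Universal Plus mRNA-Seq kit for the overexpression libraries, so values were compared only within a table. The deposited values are a signal, TMM-scaled CPM by the authors' naming, and in each library all values (100%, tolerance 0.01) were whole multiples of a step between 0.0996 and 0.187, the worth of 1 read. A floor of 3 reads is 0.299 to 0.560 and covers counting error only. The deposited log2 fold changes, p-values and FDR of the authors' own comparisons come from a test that is not stated and were only counted.

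Genes with a mean of at least 1 were tested with limma 3.58.1 (R 4.3.3) with a mean-variance trend on log2(value + 1), a scale that understates the change of low genes. All libraries of a table entered each fit, with stage as covariate for overexpression and line for the stage steps. P-values were adjusted by Benjamini-Hochberg over all genes in each of 10 comparisons and called under 0.05. edgeR 4.0.16 and DESeq2 1.42.0 on recovered reads, other scalings, filters and left-out libraries were alternatives. Scripts were tested on simulated data. Copies were found with blastn 2.17.0 against GENCODE M21. Promoter windows are from RefSeq. Members, gene lists and alternatives were chosen with earlier results of these data known. Named genes are members fixed by role, the 3 highest and 3 lowest in each comparison, those called against the majority, and paralogs and ribosomal genes outside the pattern; other names were chosen after their values were seen. Some genes are not reported here.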

Additional observations from a re-analysis of the deposited data

How the results depend on the processing

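Of 312 values over all members under alternatives, 230 stayed near the main value, that is counts within 1.5 times of it and medians that moved by less than 1 SD between the libraries of a group. Values by setting follow, and the share of all genes called was not counted for the settings of this paragraph. Median-ratio scaling gave 12 calls and a median of -0.18 at dTAG13 day 2, a median of -0.42 at day 4 and 0.28 in testis. Quantile normalization gave -0.41 at day 4, 6 calls from EpiLC to day 2 with DMSO, 2 under overexpression and a median of 0.11 in testis. A pseudocount of 0.1 gave 0.34 in testis. Without a filter on low values 12, 0, 10 and 7 members were called at dTAG13 day 2, from EpiLC to day 2 with DMSO, and from day 2 to day 4 and day 4 to day 6 in the vector lines. Without the variance trend there were 1 and 0 calls in the DMSO steps, 7 and 2 in the same vector steps and 2 in testis. edgeR on recovered reads gave 12 calls and -0.18 at day 2, -0.41 at day 4, 4 calls from EpiLC to day 2 with DMSO and 1 under overexpression. DESeq2 gave 7 and -0.17 at day 2, 28 and -0.40 at day 4, 1 from EpiLC to day 2 and 4 in testis. Only the compared groups gave 8 and 0 calls in the DMSO steps. Overexpression without the EpiLC stage gave 2 calls and without day 6 1.

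With copies added to each member (added after seeing the data) there were 36 calls at day 2, a median of -0.43 at day 4, -0.10 for the difference between days, 7 calls from day 2 to day 4 with DMSO, 5 and 0.088 under overexpression, 18 and -0.051, 51 and -0.31, and 4 and -0.079 in the vector steps, and 0.21 in testis. With median-ratio scaling as well these were 29, -0.31, -0.077, 6 (median -0.0024), 5 and 0.085, 20 and -0.077, 50 and -0.31, and 4 and -0.070, with 1 call from EpiLC to day 2 with DMSO. Adding copies turned 11 of 585 alternative values of 42 named called members: Rps6 at day 2 to 0.0031, Rps24 from day 2 to day 4 with DMSO to -0.11, Rpl39, Rpl5, Rps10, Rps14 and Rps6 from EpiLC to day 2 in the vector lines to 0.029, 0.19, 0.028, 0.012 and 0.036, Rps20 from day 2 to day 4 to -0.0067, and Rpl18, Rpl5 and Rps10 from day 4 to day 6 to -0.12, -0.13 and -0.0061. Of the other values of these members none turned direction: 422 kept the call and 121 lost it under the settings without copies, and 22 and 9 with them. The cause was not tested.

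Leaving out 1 library at a time gave 9 to 15 calls at day 2, 0 to 2 calls and medians of -0.33 to -0.14 for the difference between days, 0 to 3 and 0 to 6 in the DMSO steps, 7 to 17 and 2 to 17 in the later vector steps, and 4 to 8 calls and medians of 0.14 to 0.43 in testis. Samples with the same number deviated together little (correlations of -0.025 at day 2, -0.069 at day 4, 0.118 and 0.093 in the DMSO steps and 0.116 in testis), and no label says that a number marks a shared litter, batch or day, so the numbers were not used as pairs; whether they carry a batch was not tested. The replicate block gave 11 calls in testis (2 lower and 9 higher), and the day 4 to day 6 step with no replicate block, here the line, gave 7. Overexpression against the empty vector had stage as a covariate, and no block by replicate number could be fitted there with 1 control library a stage. With 2 libraries a group, the number of libraries and the reads of low members limit precision.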
